A study of Mus musculus with 4 samples.

Results

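DHX9 peaks were counted as intergenic and far from bound genes when they lay on an autosome, their midpoint fell in no annotated gene span, and the nearest gene span holding a peak midpoint was more than 20 kb away. One stretch, chr16:77562981-77690536, was left out by the same rule with its 85 peaks. This gave 256 of the 43106 peaks in the list, or 0.594%. They were 25.5% of the 1005 autosomal intergenic peaks. Another 664 intergenic peaks lay within 20 kb of a bound gene, and 41231 autosomal peaks lay in gene spans. The peaks were thus chosen by measured values, their own positions and those of the other peaks relative to gene spans, so the distances, the bound state of neighbouring genes and the grouping of the peaks are given as a description, with no test.

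DHX9-bound RNA was mapped by FLASH, in which ultraviolet light crosslinks protein to RNA in living cells and the RNA pulled down by an antibody is trimmed, tagged and sequenced with its strand. The cells were neural progenitors derived from WT26, a male mouse embryonic stem cell line of C57BL/6x129sV background, and kept with EGF and FGF2, the growth factors that keep neural progenitors dividing. There were 2 libraries with a DHX9 antibody and 2 with rabbit IgG, each as biological replicates A and B from this 1 line, with no other genotype or treatment. The 4 libraries were represented by 1 peak list of positions and strands. It held no depth, no height and no level per library, so replicate error could not be computed, and a peak says only that a bound stretch was called there.

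Of 15 neural progenitor marker genes, 8 held a peak (Sox9, Vim, Fabp7, Slc1a3, Ptprz1, Nfia, Nfib and Notch1), whereas the defining markers Sox2, Pax6 and Nes held none. None of 8 pluripotency markers, 1 of 8 mature neuron markers (Map2), 2 of 9 glial markers (Olig1 and Cnp) and 4 of 8 mesoderm and fibroblast markers (Col1a1, Col1a2, Col3a1 and Pdgfrb) held one. Among all 47042 autosomal genes, 4638 held a peak midpoint. A peak marks bound RNA and not a level of expression, and any part of other cell types in the intergenic peaks was not tested.

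DHX9 is a helicase that unwinds double-stranded RNA and RNA-DNA hybrids in the nucleus. Many microRNAs begin as long primary transcripts that fold into hairpins. Drosha, with Dgcr8, cuts each hairpin near its base, and Dicer then cuts near the loop, which leaves the mature arms. Primary transcripts extend well beyond the hairpins that gene tables list.

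The hairpins are shown first because the peaks on them can be placed against known RNA ends base by base, and because the pair of groups with the most peaks both held one. In the table of 919 autosomal hairpins, 9 were overlapped by an intergenic peak far from bound genes, and in each case peak and hairpin lay on the same strand. Their sequences, from RefSeq on GRCm38.p6 (mm10), are written 5′ to 3′, with the bases inside such a peak in capitals.

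Mir34a: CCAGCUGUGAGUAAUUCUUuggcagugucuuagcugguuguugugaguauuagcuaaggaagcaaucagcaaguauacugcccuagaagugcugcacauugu
Mirlet7a-1: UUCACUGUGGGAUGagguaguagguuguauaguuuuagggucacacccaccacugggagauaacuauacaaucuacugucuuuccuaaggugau
Mirlet7d: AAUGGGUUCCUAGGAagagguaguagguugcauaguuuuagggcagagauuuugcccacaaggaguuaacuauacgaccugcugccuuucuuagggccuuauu
Mirlet7f-1: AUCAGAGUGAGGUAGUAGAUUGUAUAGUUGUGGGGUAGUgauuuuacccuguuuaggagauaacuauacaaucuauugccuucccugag
Mirlet7i: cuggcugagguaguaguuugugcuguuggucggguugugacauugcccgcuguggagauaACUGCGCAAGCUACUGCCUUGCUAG
Mir23a: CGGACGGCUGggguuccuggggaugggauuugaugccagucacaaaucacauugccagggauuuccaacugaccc
Mir17: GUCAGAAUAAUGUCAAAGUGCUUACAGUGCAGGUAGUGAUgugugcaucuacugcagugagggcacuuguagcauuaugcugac
Mir20a: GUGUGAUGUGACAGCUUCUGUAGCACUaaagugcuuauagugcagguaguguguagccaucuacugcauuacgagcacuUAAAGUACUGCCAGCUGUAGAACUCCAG
Mir19b-1: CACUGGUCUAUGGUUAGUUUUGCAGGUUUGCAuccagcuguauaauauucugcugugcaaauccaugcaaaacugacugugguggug

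The capitals sit at the outer end of each hairpin and stop where a mature arm begins in several of them. In Mir34a (chr4:150068454-150068555, plus strand), a microRNA induced by p53, the peak covered 19 bases and ended 1 base before the first base of the 5p arm. The peak on Mirlet7d (chr13:48536012-48536114, minus strand) covered 15 bases and also ended 1 base before the 5p arm. On Mirlet7a-1 (chr13:48538179-48538272, minus strand) it covered 14 bases and ran 1 base past the first base of the arm. The peak edge fell exactly on the first base of the 5p arm in Mir23a (chr8:84208518-84208592, plus strand; 10 bases covered) and in Mir20a (chr14:115044157-115044263, plus strand; 27 bases covered). Mirlet7i (chr10:122985640-122985724, minus strand) was covered from the other side: its peak took in 25 bases at the 3′ end and began 1 base before the 3p arm.

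The remaining edges lay inside or beyond an arm. On Mir17 (chr14:115043671-115043754, plus strand) the peak covered 40 bases and passed the last base of the 5p arm by 4. A second peak on Mir20a covered its last 28 bases and began 4 bases before the end of the 3p arm. It continued into Mir19b-1 (chr14:115044305-115044391, plus strand), where it covered 32 bases and stopped 6 bases before the end of the 5p arm. On Mirlet7f-1 (chr13:48537829-48537917, minus strand) the peak covered 39 bases and ended 10 bases past the 5p arm.

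In total 9 peaks made 10 overlaps with a hairpin, 8 of them from the 5′ side and 2 from the 3′ side. Each edge was measured to the nearest first or last base of any mature arm of its hairpin. The edge lay within 1 base of such an arm end in 6 of 10 overlaps and within 5 bases in 8 of 10. The share of all hairpin positions that lie this close to an arm end was not counted. Other autosomal peaks made 36 overlaps with hairpins, of which 23 had a single edge inside the hairpin. Of these 23, 18 came from the 5′ side and 5 from the 3′ side, so most overlaps in both sets came from the 5′ side. Their edge was within 1 base of an arm end in 8 (34.8%) and within 5 bases in 14 (60.9%). The selection bears on this comparison, since a peak centred in a hairpin cannot be among the intergenic peaks: none of the 10 overlaps spanned a whole hairpin, against 10 of the 36 others. No test of the difference was made. Across all autosomal peaks, 41 hairpins were overlapped by a peak on their own strand and 4 by a peak on the opposite strand.

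Hairpins within 10 kb of a far intergenic peak on the same strand had 41 mature arms in the table, with 34 different seeds, the bases 2 to 8 that pair with target RNAs. Most arms, 29 of 41, had a seed that no other of them carried, while 12 arms shared 5 seeds. Printed here, with the seed in capitals, are the arms of 4 of the 5 shared seeds and 4 of the 29 arms with a seed of their own, from Mir34a, Mir23a, Mir345 and Mir344i.

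mmu-let-7a-5p: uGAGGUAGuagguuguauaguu
mmu-let-7d-5p: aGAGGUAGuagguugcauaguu
mmu-let-7f-5p: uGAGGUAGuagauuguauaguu
mmu-let-7i-5p: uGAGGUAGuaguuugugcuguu
mmu-miR-17-5p: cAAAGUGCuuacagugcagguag
mmu-miR-20a-5p: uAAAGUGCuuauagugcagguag
mmu-miR-19a-3p: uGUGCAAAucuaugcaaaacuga
mmu-miR-19b-3p: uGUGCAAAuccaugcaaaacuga
mmu-miR-195a-5p: uAGCAGCAcagaaauauuggc
mmu-miR-497a-5p: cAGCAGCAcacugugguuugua
mmu-miR-34a-5p: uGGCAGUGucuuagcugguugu
mmu-miR-23a-3p: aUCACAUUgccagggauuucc
mmu-miR-345-5p: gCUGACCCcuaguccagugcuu
mmu-miR-344i: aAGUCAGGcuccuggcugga

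The 4 let-7 arms share GAGGUAG; let-7 microRNAs accumulate as cells differentiate and repress Lin28. AAAGUGC was shared by miR-17 and miR-20a, and GUGCAAA by miR-19a and miR-19b, all from the miR-17 to miR-92 transcript that promotes proliferation; Mir19a itself was overlapped by none of these peaks. AGCAGCA, the seed of the miR-15 and miR-16 family, was shared by miR-195a and miR-497a, which lie near 1 lone peak that overlaps neither hairpin. The fifth shared seed, UAUACAA, belonged to the 3p arms of Mirlet7a-1 and Mirlet7f-1.

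MicroRNA genes were the nearest annotated gene of 55 of the 256 peaks (21.5%; 95% exact binomial interval 16.6 to 27.03), spread over 17 microRNA genes. Of the 664 intergenic peaks near bound genes, 36 (5.42%; 3.83 to 7.43) had a microRNA gene nearest, and microRNA genes were 2.41% of the 47042 autosomal genes of the table. Peaks in a group share their nearest gene, so these intervals, which take each peak as independent, are too narrow, and no test was made. Protein-coding genes were nearest to 103 peaks (40.2%), long noncoding RNA genes to 50 (19.5%) and pseudogenes to 33 (12.9%). In the class near bound genes these counts were 477 (71.8%), 110 (16.6%) and 17 (2.56%). The selection bears on these shares, because a gene counted as bound only when a peak midpoint fell in its span. Of the 919 autosomal hairpins, 8 held one. How much of the contrast between the classes the rule sets was not tested.

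**Figure D1:**
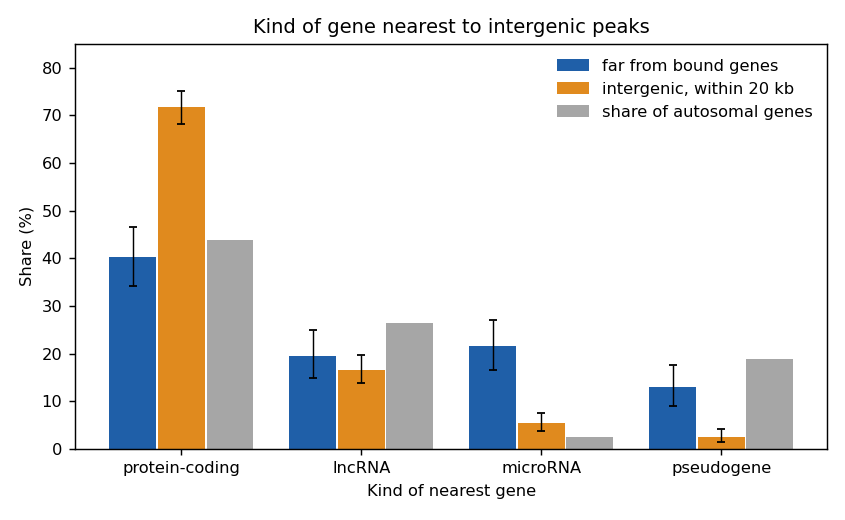
Share of peaks (%, y axis) by the kind of the nearest gene (x axis) for the 256 intergenic peaks far from bound genes, the 664 intergenic peaks within 20 kb of one, and the share of each kind among the 47042 autosomal genes; error bars are 95% exact binomial intervals over peaks. MicroRNA genes were nearest to 21.5% of the far peaks and 5.42% of the near ones, and protein-coding genes to 40.2% and 71.8%. The rule that sets both classes bears on these shares, and its part was not tested.

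Orientation could be read for the hairpins with a strand in the sequence tables. Within 10 kb, 54 peaks (21.1%) had a hairpin on their own strand and 1 had a hairpin on the opposite strand only. Seen from the hairpins, 22 of 919 (2.39%) had such a peak on their strand. Of the 192 hairpins that lie in no other gene span, 18 (9.38%) had a far intergenic peak within 10 kb on the same strand and 4 (2.08%) on the opposite strand. With every autosomal peak taken in, the counts were 35 (18.2%) and 15 (7.81%).

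Many of the peaks formed runs on 1 strand, though fewer of them had close neighbours than peaks of the other classes. Another autosomal peak of the same strand lay within 10 kb for 159 of the 256 (62.1%). That share was 92.2% for intergenic peaks near bound genes and 94.4% for peaks in gene spans. The distance limit bears on these shares, and no test was made. Joining peaks of the same strand at gaps of up to 10 kb gave 134 groups: 97 peaks stood alone, 18 groups held 2 peaks, and 19 groups held 3 or more. Those 19 groups held 123 peaks, 48.0% of all. Among neighbouring peaks within 10 kb of each other, 122 of 123 pairs (99.2%; 95.6 to 99.98) lay on the same strand. The exception was chr2:90395120-90395203 (minus) and chr2:90395180-90395207 (plus), near the olfactory receptor gene Olfr1274, which overlapped by 24 bases. Pairs within 1 run are not independent, so the interval of the same-strand share is too narrow. The larger groups lay on 16 chromosomes, 14 on the plus and 5 on the minus strand. They spanned 973 to 31322 bases with a median of 3220, and held 0.543 to 3.57 peaks per kb.

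MicroRNA hairpins accompanied 7 of these 19 groups, within 10 kb and on the same strand, among them 5 of the 13 groups of at least 5 peaks. The group with the most peaks, chr7:62066035-62097356 (minus strand), held 17 peaks over 31322 bases around Mir344i. Its closest peak lay 146 bases from the Mir344i hairpin (chr7:62085223-62085310), and 12 of the 17 were upstream of the hairpin by strand. These 12 peaks were 96 to 423 bases long. On the same strand of this stretch, 8 more peaks formed chr7:62005074-62018167, 3 formed chr7:62185842-62186814, and 1 peak at chr7:62036756-62036901 lay 19 bases from the small nuclear RNA gene Gm23431. Together these made 29 peaks on the minus strand. The bound gene nearest to all of them was Mir344g, which held 1 peak and lay 22760 bases from the midpoint of the closest one. The distance limit cut the run of the group of 8, which held 2 other intergenic peaks closer to a bound gene.

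The second group, chr4:150059857-150071356 (plus strand), held 12 peaks around Mir34a. It began 1140 bases after the end of Gm13067, a long noncoding RNA gene on the same strand that held no peak. The nearest bound gene was Eno1, a glycolytic enzyme, 165467 bases away. Of the 12 peaks, 4 lay wholly on the 5′ side of the hairpin, 1 overlapped its 5′ end as shown above, and 7 followed on the 3′ side. These 7 peaks were 91 to 280 bases long.

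On the minus strand, 6 peaks marked the let-7 stretch chr13:48536100-48546050. Going along the strand, 3 peaks lay upstream of Mirlet7a-1, and each of Mirlet7a-1, Mirlet7f-1 and Mirlet7d then had 1 peak over its 5′ flank. The nearest bound gene, Phf2, was 255772 bases away. The fourth let-7 hairpin, Mirlet7i, had a single peak, chr10:122985428-122985664 (minus strand), with no neighbour within 10 kb on its strand.

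On the plus strand of chromosome 14, 5 peaks at chr14:115040963-115044336 followed the miR-17 transcript. The first pair lay upstream of Mir17, the third overlapped Mir17, the fourth ran from 21 bases after Mir19a to the 5p arm of Mir20a, and the fifth joined Mir20a to Mir19b-1. The table's span for the host gene Mir17hg begins 54 bases after the last of these peaks. The sequence before and between the hairpins upstream of that span therefore counted as intergenic, while the hairpins are gene spans of their own. Mir23a, Mir27a and Mir24-2 followed a group of 4 peaks, chr8:84202088-84208527 (plus strand), whose last peak ended inside Mir23a, 145 bases before Mir27a and 288 before Mir24-2. No peak of this group lay on the 3′ side of Mir23a.

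Mir345 showed the opposite arrangement. All 6 peaks of chr12:108838362-108841581 (plus strand) lay on the 3′ side, the first 1294 bases after the hairpin, and none overlapped it. A lone peak at chr11:70234219-70234378 (plus strand) stood 339 bases before Mir497 and 664 before Mir195a. Another, chr17:34025414-34025626 (plus strand), lay 343 bases after Mir219c, with Mir219a-1 on the opposite strand 322 bases away. The group at chr6:113712304-113713961 (4 peaks, plus strand) was the seventh with a hairpin within 10 kb, Mir7042 at 5039 bases, and it stood nearer to the end of Tatdn2, at 1222 bases.

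**Figure D2:**
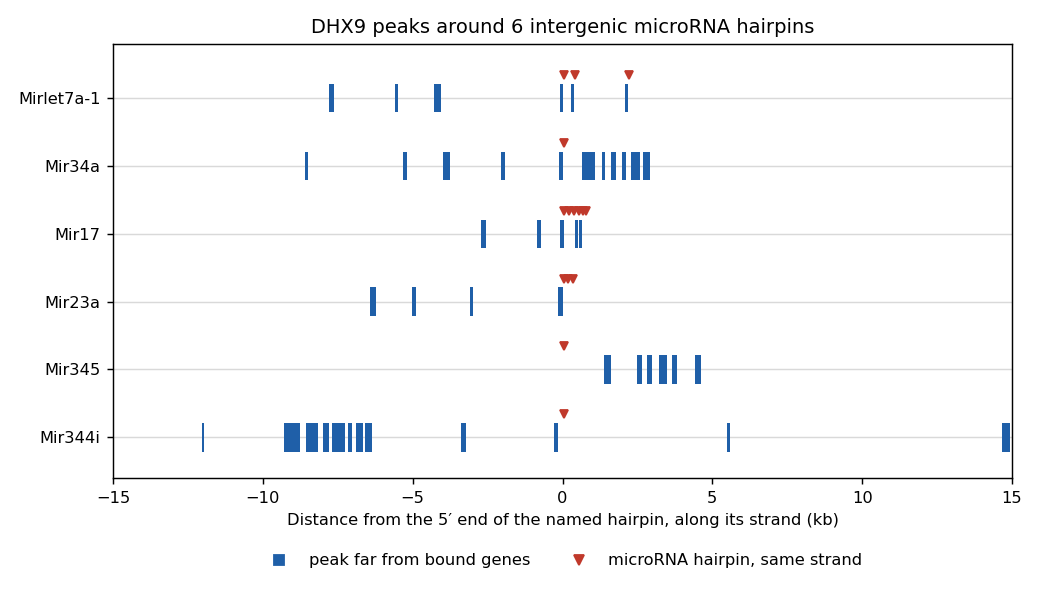
Position of intergenic peaks far from bound genes (bars, drawn to scale) and of same-strand microRNA hairpins (triangles) around 6 hairpins; the x axis gives distance from the 5′ end of the named hairpin along its strand, in kb, within 15 kb. At Mir23a all 4 peaks lie upstream of the hairpin or over its 5′ end, at Mir345 all 6 lie on the 3′ side, and at Mir34a the 12 peaks lie on both sides.

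The other 12 groups of 3 or more peaks had no hairpin of their strand within 10 kb. The 8 peaks at chr15:85672535-85681382 (plus strand) lay 22391 bases upstream of Lncppara, the long noncoding gene whose span holds 4 peaks. That span also holds the plus-strand hairpins Mirlet7c-2 (chr15:85706603-85706697) and Mirlet7b (chr15:85707319-85707403). A peak in the gene span, chr15:85706540-85706617, covered 15 bases at the 5′ end of Mirlet7c-2. Here the distance limit cut through a longer run: 21 other peaks continued it on the same strand, 4 of them in Lncppara. This is the only group of 5 or more whose run reached a peak in a gene.

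Groups next to protein-coding genes took every orientation. At chr10:4388546-4401360 (8 peaks, plus strand) the flanking genes were Zbtb2, a zinc finger protein, 438 bases away, and Rmnd1, needed for mitochondrial translation, 1809 bases away. Both are on the minus strand, so the peaks ran opposite to them, and neither held a peak. Akap12, a scaffold for protein kinase A that held 26 peaks, lay 29152 bases away. At chr2:112139233-112151057 (8 peaks, minus strand) the flanking genes were the olfactory receptors Olfr1316, Olfr1317 and Olfr1318, and the nearest gene of every peak, Olfr1317 or Olfr1318, was on the opposite strand. Olfactory or vomeronasal receptor genes or pseudogenes were nearest to 15 of the 256 peaks in all, and 8 of these 15 were the peaks of this group. The share of such genes among all genes was not counted, so nothing is read from this number. At chr9:55942983-55945449 (5 peaks, plus strand) the nearest gene of 4 peaks was Scaper, 4762 bases away on the opposite strand, with the pseudogene Gm7435 4505 bases away on the other side.

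Other groups followed the end of a gene on its own strand. The densest among groups of at least 5, with 3.30 peaks per kb, was chr1:72714368-72716183 (6 peaks, plus strand). It began 555 bases after Rpl37a (chr1:72711260-72713813, plus strand), a protein of the large ribosomal subunit, which held no peak midpoint itself. Its 6 peaks were 103 to 304 bases long with a median gap of 90 bases. Igfbp2, an insulin-like growth factor binding protein with 79 peaks, was the nearest bound gene, at 108370 bases. At chr4:123055146-123057102 (plus strand), 3 peaks began 197 bases after Trit1, a tRNA-modifying enzyme. At chr16:5487064-5490091 (plus strand), 7 peaks began 2110 bases after the long noncoding gene Gm41416. On the far side of that group Rbfox1, a neuronal splicing factor with 3 peaks, lay 394702 bases downstream.

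A further pair of groups stood before a gene on its own strand. The 6 peaks at chr11:95720795-95723270 (plus strand) ended 316 bases before B130006D01Rik, a long noncoding gene with no peak. The 4 peaks at chr5:138337356-138338474 (plus strand) ended 3457 bases before Pvrig, an inhibitory receptor of lymphocytes, at 3.57 peaks per kb.

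**Figure D3:**
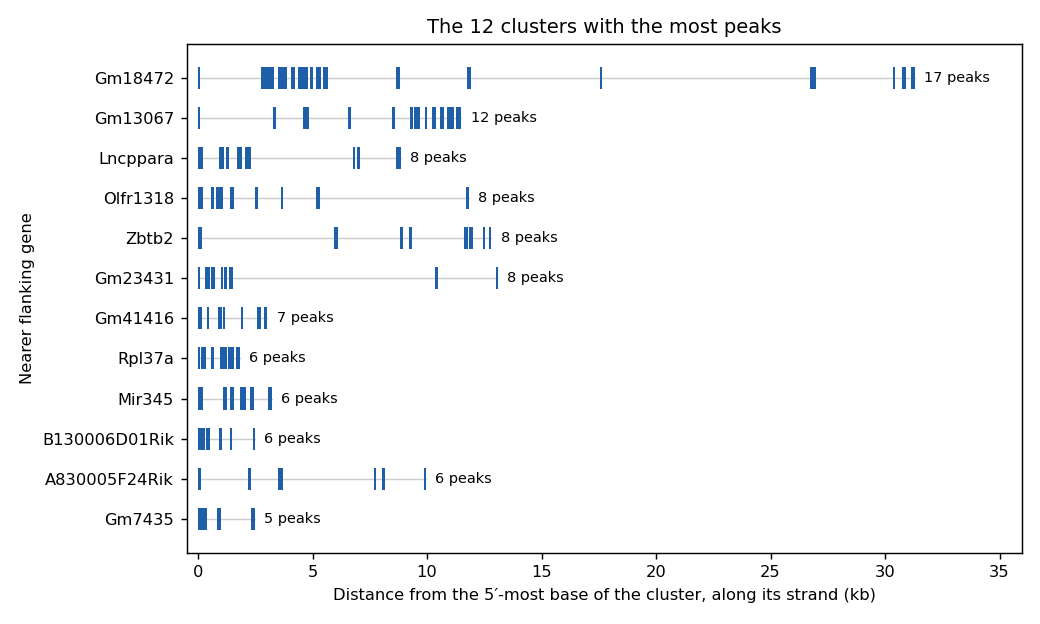
Peaks (bars, drawn to scale) of the 12 groups with the most peaks, named by the nearer flanking gene, with distance from the 5′-most base along the strand (x axis, kb). Groups ranged from 5 to 17 peaks; the 6 peaks after Rpl37a span 1816 bases, whereas the 17 peaks at the top span 31322.

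For 183 peaks the nearest gene had a strand. Of these, 124 (67.8%) lay on the strand of that gene, 64 downstream and 60 upstream of it. Among peaks near bound genes the share on the gene's strand was 434 of 533 (81.4%). The kinds of gene differed in this. Where a microRNA gene was nearest, 51 of 54 peaks (94.4%) lay on its strand, 35 upstream and 16 downstream. Where a long noncoding gene was nearest, 32 of 43 (74.4%) did, 16 on either side.

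Around protein-coding genes the picture was mixed. Of 86 peaks, 32 (37.2%) lay downstream on the same strand, 28 (32.6%) upstream on the opposite strand, 17 downstream on the opposite strand and 9 upstream on the same strand. Near bound genes, 291 of 402 such peaks (72.4%) were downstream on the same strand and 35 (8.71%) upstream on the opposite strand. The distance limit removes peaks that follow a bound gene, and its part in this difference was not tested. Within 1 kb downstream on the same strand there were 10 peaks at 8 genes: A430033K04Rik, Btf3l4, Cd2bp2, Dnph1, Pigbos1, Rbm46, Rpl37a and Trit1. Within 5 kb there were 28 peaks at 18 genes. Upstream on the opposite strand within 5 kb there were 14 peaks at 11 genes, among them Zbtb2, Pym1, Scaper, Trim39, Egln1 and the ubiquitin gene Ubb. Upstream on the same strand within 5 kb there were 6 peaks at 3 genes, Ano7, Pvrig and Syt15, and none within 1 kb.

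The nearest annotated gene lay a median of 4739 bases from a peak midpoint (95% interval from order statistics 3675 to 5469). It was within 1 kb for 38 peaks, at 1 to 5 kb for 98, at 5 to 20 kb for 70, at 20 to 100 kb for 39 and farther for 11. The nearest bound gene lay a median of 114652 bases away (107463 to 144143), with 105 peaks at 20 to 100 kb and 151 beyond. Peaks of 1 group often share these genes, so the intervals of both medians are too narrow. The nearest gene itself held no peak for 240 of the 256, which the selection sets except beyond 20 kb. At the limit, the first peaks inside were 20141 bases from Adamtsl4, 20280 from Ube2d-ps and 20464 from Adamtsl4, and the last outside were 19966 from Mir344g, 19741 from Tars2 and 19416 from Adamtsl4. Peaks on both sides of the limit near Adamtsl4 belonged to 1 run of the plus strand.

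Counted over sequence, the far intergenic peaks were sparse, at 0.218 per Mb over 1175 Mb. There were 8.58 per Mb in the 77.4 Mb of intergenic sequence within 20 kb of bound genes and 34.7 per Mb in gene spans. The rule sets these classes of sequence from the positions of the same peaks, so nothing is read from the order of the densities. Chromosome 7 held 35 peaks, 32 of them on the minus strand, of which 29 came from the Mir344 stretch. Chromosome 4 held 21 peaks and chromosome 17 held 19 in 13 groups, while chromosome 19 held none. In all, 137 peaks (53.5%; 47.2 to 59.7) lay on the plus strand.

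Peaks far from bound genes had a median length of 139 bases (129 to 148), with quartiles of 102 and 180 and a range of 18 to 624. The median was 153 bases (147 to 157) for intergenic peaks near bound genes and 154 (153 to 154) for peaks in genes. Median length was higher in larger groups. Peaks that stood alone had a median of 110 bases (102 to 133), those in pairs 137, and those in groups of 3 or more 156 (144 to 166). Peaks of 1 group are not independent, so the interval of the larger groups is too narrow, and no test of the difference was made.

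Under 60 bases there were 25 peaks, or 9.77% (6.42 to 14.1). In the class near bound genes the share was 7 of 664 (1.05%), and in gene spans 148 of 41231 (0.359%). Of the 25, 21 stood alone, 4 were in pairs and none was in a group of 3 or more. They had a median length of 28 bases, lay on 15 chromosomes, and 16 were on the minus strand. Read depth and repeats at these positions were not analysed here.

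**Figure D4:**
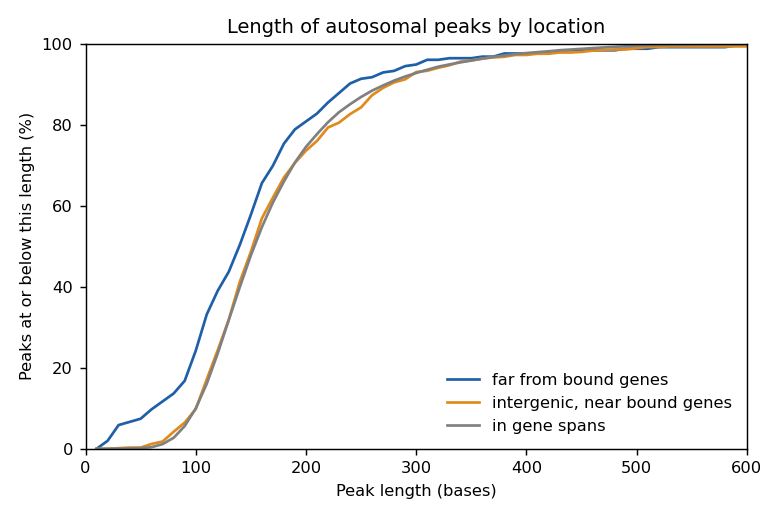
Cumulative share of peaks (%, y axis) at or below each length (x axis, bases, shown to 600) for far intergenic peaks, intergenic peaks near bound genes and peaks in gene spans. The curve of the 256 far peaks runs above both others at short lengths, with 9.77% under 60 bases against 1.05% and 0.359%, and its median is 139 bases against 153 and 154.

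Among the 11 peaks more than 100 kb from any gene, 5 were under 60 bases long and 6 were 110 to 511 bases long. The peaks under 60 bases lay a median of 6503 bases from a gene. The farthest peak, chr4:80002759-80002793 (minus strand), was 35 bases long and lay 506562 bases from its nearest gene, the long noncoding Gm32658. A peak of 43 bases on chromosome 18 followed, 384729 bases from Gm41710. The third, chr5:84618465-84618489 (minus strand), had 25 bases and lay 151525 from Gm42163; the nearest bound gene was Epha5, a receptor for ephrin guidance cues, at 200659. The fourth, chr15:45299243-45299265, had 23 bases and lay 140825 from a predicted small nuclear RNA gene. The fifth, chr1:102628170-102628339, had 170 bases and lay 131711 from the pseudogene Gm53054.

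Of the 10 longest peaks, 7 had a pseudogene nearest, 2 a protein-coding gene and 1 a microRNA gene. The 5 longest were chr9:3258604-3259227 (624 bases), chr17:22877544-22878132 (589), chr3:5860323-5860833 (511), chr14:19277977-19278462 (486) and chr3:62159054-62159479 (426). Their nearest genes were Olfr369-ps1, Gm32892, Gm8797, Gm6122 and Gm9700, at distances of 3831 to 109283 bases, and none held a peak. None of these 5 was in a group of 3 or more peaks, but 2 of the 10 were. The sixth, chr7:62092574-62092996 (423 bases), belonged to the group of 17 around Mir344i.

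Apart from hairpins, 3 peaks touched a gene span, all of transfer RNA genes, which encode short RNAs that carry amino acids to the ribosome. The peak chr11:97988843-97989001 covered all 72 bases of n-TCgca54. Another, chr13:22022331-22022482, covered 64 of the 82 bases of n-TScga1, and chr13:21326682-21326745 covered 29 of the 73 bases of n-TMcat13. These peaks were on the minus strand. No strand was available for the 3 genes, so whether peak and gene lay on the same strand is unknown. Such genes have near-identical copies, and how reads with several matches were placed is not given in the sources used here.

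In all, 270 genes, 0.574% of the 47042 autosomal genes, were the first gene on either side of a far intergenic peak. A peak midpoint was held by 4638 of the 47042. Of 41 neural transcription factors, 21 held a peak and 1 was the first gene beside a far intergenic peak: Lhx2, a regulator of forebrain progenitors, 54947 bases away and without a peak. Of 38 adhesion and guidance genes, 16 held a peak and 2 flanked one, the cadherin Cdh11 (12 peaks) at 97172 bases and the guidance cue Sema3c (no peak) at 46455. Of 22 genes listed as noncoding hosts, 9 held a peak and 2 flanked one, the hairpin gene Mirlet7a-1 and the host gene Mir17hg, at 54 bases. Mirlet7a-1 had 4 peaks beside it, the closest at 176 bases, apart from the peak that overlapped it by 14 bases. The lists were chosen with earlier results of these data known, and with 1 or 2 genes each nothing is read from these counts.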

How the data were processed

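The authors deposited 1 PEAKachu peak list with positions and strand only; its other value columns were empty, per the file itself. Bowtie2 2.2.6 and the builds hg19 and mm10 are named per the submitters' processing notes; positions were read as mm10. Caller version, settings, use of the IgG libraries and placement of repeated reads are not given in the sources used here. Groups came from the sample titles. Gene spans came from a RefSeq table of GRCm38.p6 (47042 autosomal genes, 26667 of them with a strand from the sequence tables), and 4638 held a peak midpoint. Peaks within 10 kb on 1 strand were joined into groups. Distances of single peaks to their nearest gene, and distances to the nearest bound gene, run from a peak midpoint. Those to flanking genes, which include Lncppara and Rbfox1, to listed genes and to hairpins run from the nearest edge. The members and lists were chosen with earlier results of these data known. Named were the genes flanking the 12 groups with the most peaks, the 5 farthest and the 5 longest peaks, and flanking list genes; others were chosen after their values were seen. Intervals are 95% exact binomial (Clopper-Pearson) or, for medians, from order statistics. They take each peak or pair as independent, which peaks of 1 group are not, and cover neither replicates nor counting error. Python 3.11.15, pandas 2.3.3, numpy 2.4.6 and scipy 1.17.1 were used, and the code was tested on simulated data. Alternatives varied the distance limit, midpoint rule, peak length, merging at 50 bases, gene kinds and joining gap. The planned sequence content of the peaks was not analysed here, as no genome was used.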

Additional observations from a re-analysis of the deposited data

How the results depend on the processing

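Of 68 alternatives over 8 results, 49 stayed within the interval or within 1.5 times the reported value, and 19 moved; why was not tested. Peaks of at least the median length of the list gave 131 peaks in 69 groups, a median length of 193 bases and 100% same-strand neighbours. Protein-coding spans alone gave 918 peaks in 284 groups, 71.2% of them in groups of 3 or more, with medians of 149 bases in length, 50520 to a gene and 301177 to a bound gene. Leaving out predicted genes gave 426 peaks, 58.9% in groups of 3 or more and 61.0% on the plus strand, with medians of 12608 bases to a gene and 170607 to a bound gene. A limit of 10 kb gave 54.9% in groups of 3 or more and a median of 92308 bases to a bound gene, and a limit of 50 kb gave 171544 bases and 100% same-strand neighbours. No paired analysis was possible because the 4 libraries share 1 list with no value per library; for the same reason no replicate could be left out. Depth is unknown, so a stretch without a peak may hold bound RNA below the caller's threshold.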
